A study of Mus musculus with 6 samples.

Results

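Dendritic cells take up antigen and present it to T cells, and 9 genes that mark these cells or are required for them were followed in mandibular-derived and femur-derived monocytes. They were chosen by their role and not by their level here, though with earlier results of these data known. They were taken as the rows of the count table with these symbols, 9 of 57010 genes. Flt3 and Zbtb46 stand for all conventional dendritic cells, Batf3, Clec9a and Xcr1 for the conventional type 1 subset, Cd209a and Irf4 for the conventional type 2 subset, and Siglech and Tcf4 for plasmacytoid dendritic cells. The data were 6 bulk RNA-Seq libraries of monocytes from the bone marrow of C57BL/6 mice (C57Bl/6J in the study's text) aged 1 year, 3 of the femur (S13, S15 and S18) and 3 of the mandible (S16, S19 and S23), and the study asked how gene expression in monocytes differs between these skeletal sites. All mice had this one strain background, the study used mice of both sexes, and no genotype or drug differed between the sites. The labels do not give the sex of each library, and sex-linked genes, given below, were not balanced between the sites. Monocytes of both sites were obtained in the same way, by negative selection, in which antibody-labelled marrow cells of other kinds stay on a magnetic column and the unbound cells are collected. The labels do not say whether the 3 libraries of a site came from separate animals, so the p-values measure the spread between these libraries only. This spread may be technical, except that S23 differed from S16 and S19 in sex-linked genes and so came from other mice.

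Conventional dendritic cells arise in the marrow from progenitors that carry the receptor Flt3 and reach the tissues as precursors, while plasmacytoid dendritic cells complete their development in the marrow and are known for their interferon output after sensing of viral nucleic acid. The subsets are set by transcription factors: Batf3 with Irf8 for type 1, Irf4 with Klf4 and Notch2 signals for type 2, and the E protein Tcf4 for plasmacytoid cells, where Id2 opposes it. Monocytes share part of this program and can be turned into dendritic cells by cytokines, so none of the 9 genes counts dendritic cells by itself. In bulk RNA, fewer cells of a type and less RNA per cell cannot be told apart.

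The libraries held 15718782 to 25371474 counts on genes, and 3 counts, the limit that a count of 0 allows, came to between 0.133 and 0.172 counts per 1000000 counts after TMM scaling (CPM hereafter), which covers counting error only. Femur library S15 stood apart by the number of genes with any count, 40494 against 17481 to 23513 in the others. Mandible library S23 stood apart by Xist, which silences one X chromosome in female cells, at 1441 CPM against at most 0.553 CPM elsewhere, and it held no count of the Y-linked genes Ddx3y, Kdm5d and Uty. All femur libraries and S16 and S19 held these Y-linked genes, with Ddx3y at 46.4 to 75.1 CPM. By these genes the only female library was of the mandible. Sex therefore differed in part with the site, and the test held no term for it. The 14 monocyte markers were all tested and summed to between 7208 and 15777 CPM in every library, with Lyz2, F13a1 and Chil3 as the most abundant, so markers of the labelled cell type were present. Lyz2 alone made up most of each sum. Markers of other cells were present too: neutrophil markers summed to 3681 to 32748 CPM in femur libraries and 3880 to 10243 CPM in mandible libraries, and 12 mesenchymal and 8 dental epithelium markers summed to 8624 to 14989 CPM and 5767 to 11300 CPM in mandible libraries against 314 to 414 CPM and 8.52 to 12.0 CPM in femur libraries. In S13 and S18 the neutrophil markers, at 32748 and 23554 CPM, summed to more than the monocyte markers, at 11249 and 15777 CPM. Of the dental epithelium markers, Odam had no count in any femur library, and none of the list was at 0 in a mandible library.

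Of the 9 genes, 8 passed the filter on low counts and were tested, and Xcr1 did not pass. Tcf4 alone was called in the quasi-likelihood test of edgeR, where a call needed a Benjamini-Hochberg adjusted p below 0.05 together with a change of 2-fold or more. Of the 18114 genes tested, 5.18% were called, 3.88% as higher and 1.3% as lower in the mandible. The libraries of the sites did not overlap for 2 of the 8 genes, Tcf4 (higher in the mandible) and Clec9a (lower), while 24.2% of all tested genes had groups that did not overlap, so this count was close to that of the background. The median log2 fold change of the 8 genes, mandible over femur, was 0.38, against -0.04 over all tested genes, and 6 of the 8 lay above 0.

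**Figure D1:**
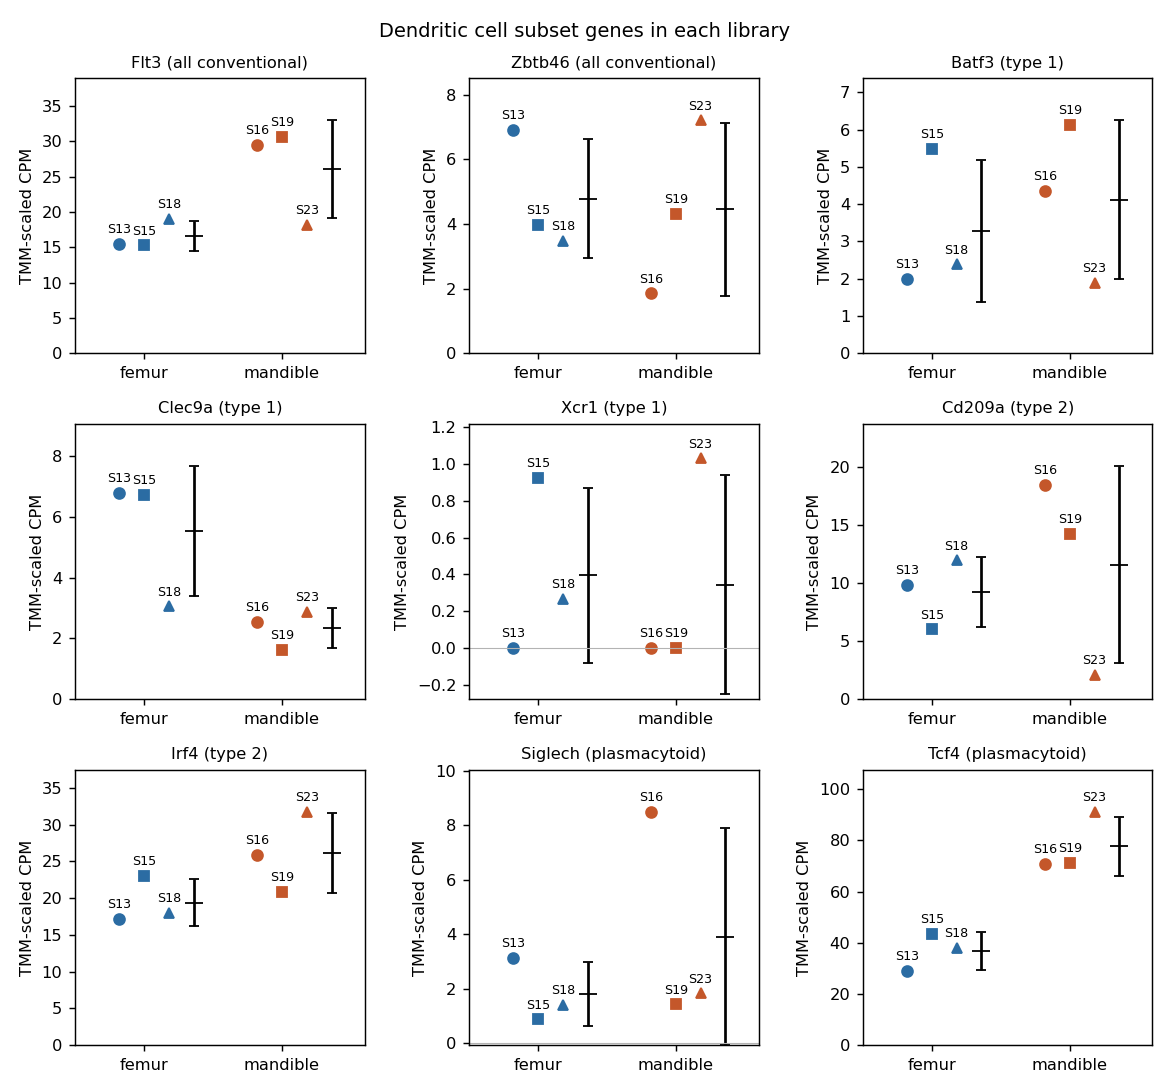
TMM-scaled CPM (vertical axis, linear, one scale per panel) of the 9 genes in the 3 femur libraries (blue) and the 3 mandible libraries (orange), with the mean and SD of each site in black. Tcf4 lies at 70.7 to 91.1 CPM in mandible libraries and 28.9 to 43.5 CPM in femur libraries, Clec9a lies lower in each mandible library than in any femur library, and the other genes overlap between the sites.

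Sequence upstream of the gene start is shown for Clec9a and Siglech, since Clec9a was the gene of the type 1 subset whose sites did not overlap and Siglech belongs to the subset whose E protein, Tcf4, binds E-box letters. Each line holds the 250 bases before the RefSeq start on the gene's strand (GRCm38.p6), and capitals mark the letters CANNTG, the E-box, which read the same on both strands.
Clec9a: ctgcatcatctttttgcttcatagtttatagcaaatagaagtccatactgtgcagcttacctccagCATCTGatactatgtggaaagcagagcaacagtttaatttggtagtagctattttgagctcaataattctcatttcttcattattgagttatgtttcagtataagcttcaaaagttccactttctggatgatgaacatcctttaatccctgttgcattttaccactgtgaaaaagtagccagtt
Siglech: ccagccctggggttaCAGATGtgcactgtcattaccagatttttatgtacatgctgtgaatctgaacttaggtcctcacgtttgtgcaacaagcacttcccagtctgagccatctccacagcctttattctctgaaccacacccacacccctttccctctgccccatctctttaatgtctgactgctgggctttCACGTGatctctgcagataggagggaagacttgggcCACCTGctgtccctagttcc
The Clec9a window is chr6:129408612-129408861 on the plus strand and lies within the span of the neighbouring gene Clec1b, and the Siglech window is chr7:55767934-55768183 on the plus strand. The Siglech window held 3 matches, the nearest 20 bases before the start, and the Clec9a window held 1, at 184 bases before the start, counted to the first base of the match. E-box letters were in 66.2% of 32851 windows of this length, so a match is common. Of the 8 genes with a window used here, Zbtb46 held 5 E-box matches, Cd209a and Batf3 held 2 each, Flt3 and Xcr1 held 1 each, and Irf4 held none. The letters TGANTCA, the site of AP-1 and Batf dimers, which also read the same on both strands, were in 6.75% of all windows and, among the 8, in that of Zbtb46 alone, whose RefSeq start lies inside the longer GENCODE gene. These matches describe the letters of the windows only.

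Flt3, the receptor for the cytokine that drives dendritic cell development, lies on chr5:147330741-147400489 (GRCm38, GENCODE M21, minus strand). It was read at 15.5, 15.3 and 19.04 CPM in femur libraries S13, S15 and S18 and at 29.4, 30.6 and 18.1 CPM in mandible libraries S16, S19 and S23. S16 and S19 were the highest, and S23 fell within the femur range, so the sites overlapped. The means were 16.6 ± 2.13 CPM in femur libraries and 26.1 ± 6.89 CPM in mandible libraries (SD, n = 3 each), and the log2 fold change was 0.65 (SE 0.33, 95% interval -0.08 to 1.38). It did not pass the test, with an adjusted p of 0.38 in edgeR's quasi-likelihood test and a p of 0.2 when the site labels were permuted exactly (two-sided, on log2(CPM + 0.5)), which cannot go below 0.1 with 3 against 3 libraries. Leaving out S23, the fold change was 0.80 on the log2 scale, with an adjusted p of 0.28, the lowest of the 6 fits that each left out 1 library.

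Zbtb46, a zinc finger repressor found in conventional dendritic cells and their committed precursors but little in monocytes, lies on chr2:181387762-181459426 (minus strand). Its values were 6.90, 3.96 and 3.49 CPM in S13, S15 and S18 and 1.85, 4.32 and 7.21 CPM in S16, S19 and S23. The highest and the lowest library were both of the mandible, and the means, 4.79 ± 1.85 CPM in femur libraries and 4.46 ± 2.68 CPM in mandible libraries, differed by less than the spread within either site. The log2 fold change was -0.10 (SE 0.70, 95% interval -1.64 to 1.44, adjusted p = 0.97), an interval that spans a fall and a rise of more than 2-fold.

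Among the type 1 genes, Batf3, a transcription factor required for this subset, lies on chr1:191097847-191108945 (plus strand) and was read at 1.99, 5.48 and 2.39 CPM in S13, S15 and S18 and 4.35, 6.12 and 1.89 CPM in S16, S19 and S23. High and low libraries occurred at both sites, with S19 and S15 the highest and S23 and S13 the lowest. The means were 3.29 ± 1.91 CPM in femur libraries and 4.12 ± 2.13 CPM in mandible libraries, and the log2 fold change was 0.33 (SE 0.77, 95% interval -1.37 to 2.03, adjusted p = 0.92). Without S19 the direction turned, to -0.13 on the log2 scale.

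Clec9a, a C-type lectin by which type 1 cells sense actin exposed on dead cells, lies on chr6:129408862-129424763 (plus strand). It had 123, 146 and 69 counts in S13, S15 and S18, or 6.79, 6.73 and 3.05 CPM, and 51, 34 and 50 counts in S16, S19 and S23, or 2.55, 1.61 and 2.86 CPM. All femur libraries were above all mandible libraries, though S18 lay close to S23. The means were 5.52 ± 2.14 CPM in femur libraries and 2.34 ± 0.649 CPM in mandible libraries, and the log2 fold change was -1.24 (SE 0.71, 95% interval -2.79 to 0.31). It did not pass the test, with an adjusted p of 0.45 in edgeR's quasi-likelihood test and a p of 0.1, the smallest possible, in the exact permutation test. The fold change stayed between -1.52 and -1.05 on the log2 scale when each library was left out in turn, and no such fit called it.

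The Clec9a counts carry a limit of their own. The gene shares 184 exon bases, 5.59% of its 3293, with Clec1b on the same strand (chr6:129397297-129409335), a lectin of platelets and megakaryocytes. Clec1b, looked at because of this overlap after its values were seen, was read at 34.9, 45.7 and 45.7 CPM in femur libraries and 2.50, 2.37 and 14.4 CPM in mandible libraries, a log2 fold change of -2.72 (SE 0.63, adjusted p = 0.030 in edgeR's quasi-likelihood test). It was lower in the mandible, the same direction as Clec9a. How reads in shared exon bases were counted is not given in the sources used here, and the part of Clec1b reads in the Clec9a values was not tested. Flt3, Zbtb46 and Tcf4 also overlap other annotated genes, but share no exon bases with them.

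Xcr1, the chemokine receptor that pairs type 1 cells with XCL1-producing lymphocytes and the gene most particular to the subset, lies on chr9:123852315-123862029 (minus strand). It had 0, 20 and 6 counts in S13, S15 and S18 and 0, 0 and 18 counts in S16, S19 and S23. A count above 0 was found in 2 femur libraries and 1 mandible library, and the highest values were 0.921 CPM in S15, the library with the most genes detected, and 1.03 CPM in S23. No difference between the sites was detectable at this depth.

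Among the type 2 genes, Cd209a, a lectin of the DC-SIGN family also found on monocyte-derived dendritic cells, lies on chr8:3743397-3748984 (minus strand). It was read at 9.83, 5.99 and 11.9 CPM in S13, S15 and S18 and at 18.4, 14.2 and 2.12 CPM in S16, S19 and S23. The mandible held both the highest libraries and the lowest, with S23 below every other library, and the means were 9.25 ± 3.01 CPM in femur libraries and 11.6 ± 8.46 CPM in mandible libraries. The log2 fold change was 0.32 (SE 0.66, 95% interval -1.13 to 1.77, adjusted p = 0.90), 0.76 without S23, and -0.17 without S16. The 6 other genes of the Cd209 cluster did not pass the filter, and together they reached at most 2.21 CPM in a femur library and 0.855 CPM in a mandible library.

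Irf4, a transcription factor of type 2 cells and also of plasma cells and activated lymphocytes, lies on chr13:30749226-30766976 (plus strand). Its values were 17.1, 23.04 and 17.9 CPM in S13, S15 and S18 and 25.9, 20.8 and 31.7 CPM in S16, S19 and S23. S23 and S16 were above the femur libraries and S19 was below S15, so the sites overlapped. The means were 19.4 ± 3.21 CPM in femur libraries and 26.2 ± 5.46 CPM in mandible libraries, and the log2 fold change was 0.43 (SE 0.32, 95% interval -0.26 to 1.13, adjusted p = 0.60). Plasma cell markers summed to 634 to 1090 CPM in femur libraries and 594 to 813 CPM in mandible libraries, with 1 of 8, Sdc1, called as higher in the mandible (1.99 on the log2 scale, adjusted p = 0.0042). Of these markers 5 of 8 lay above 0, with a median of 0.20. Over all tested genes 3.88% were called as higher and the median was -0.04. Jchain went the other way, at -1.04 on the log2 scale (adjusted p = 0.18 in edgeR's quasi-likelihood test). The part of plasma cells in the Irf4 values was not tested.

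Among the plasmacytoid genes, Siglech, a sialic acid-binding receptor used to mark these cells, lies on chr7:55768178-55778925 (plus strand). It was read at 3.15, 0.875 and 1.41 CPM in S13, S15 and S18 and at 8.51, 1.42 and 1.83 CPM in S16, S19 and S23. S16 alone, with 170 counts against 19 to 57 in the others, set the mandible mean of 3.92 ± 3.98 CPM above the femur mean of 1.81 ± 1.19 CPM. The log2 fold change was 1.11 (SE 0.98, 95% interval -1.05 to 3.28, adjusted p = 0.69), and it was -0.16 without S16. A difference in Siglech was therefore carried by 1 library.

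Tcf4, the E protein required for plasmacytoid cell identity and also transcribed in B cells, mesenchymal cells and many other tissues, lies on chromosome 18 at 69343356 to 69689079 (plus strand). It had 524, 945 and 858 counts in S13, S15 and S18 and 1413, 1501 and 1593 counts in S16, S19 and S23, or 28.9, 43.5 and 37.9 CPM and 70.7, 71.3 and 91.1 CPM. Every mandible library was above every femur library, S23 the highest and S13 the lowest. The means were 36.8 ± 7.36 CPM in femur libraries and 77.7 ± 11.6 CPM in mandible libraries, and the log2 fold change was 1.08 (SE 0.26, 95% interval 0.50 to 1.65), or 2.11-fold (1.41 to 3.15). It passed edgeR's quasi-likelihood test with an adjusted p of 0.037, and its exact permutation p was 0.1, the smallest possible.

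The Tcf4 call was not held by every fit. With each library left out in turn the log2 fold change stayed between 0.89 (without S23, adjusted p = 0.16) and 1.17 (without S15, adjusted p = 0.022), but 1 of these 6 fits, that without S15, still called it. Over the 15 alternatives tried the adjusted p ran from 0.0050 with DESeq2 to 0.90 after the correction for gene length. That correction moved Tcf4 most: its exons add up to 27382 bases, only 30 of the tested genes are longer, and the median log2 fold change rose with length over 10 groups of genes of equal number, from -0.65 in the shortest group (6 called as higher, 96 as lower) to 0.23 in the longest (159 as higher, 4 as lower). After a loess correction of log2 CPM on length in each library, Tcf4 was at 0.12 on the log2 scale, where the median of all tested genes was -0.18.

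**Figure D2:**
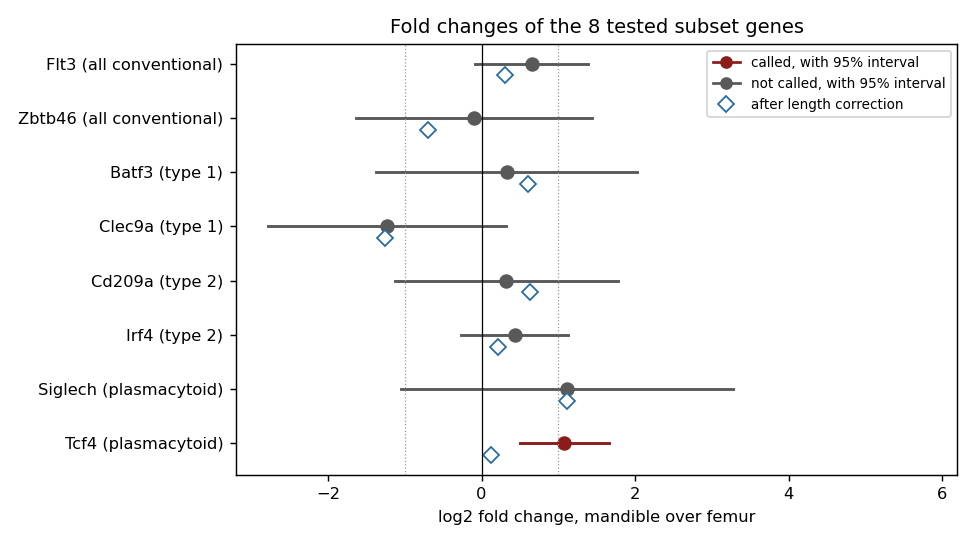
Log2 fold changes, mandible over femur, of the 8 tested genes with their 95% intervals (red where called, grey where not), and the value after correction for gene length as open diamonds; dotted lines mark a fold change of 2. Only the Tcf4 interval, 0.50 to 1.65, lies clear of 0, and its length-corrected value is 0.12.

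Most mesenchymal and dental epithelium markers moved with Tcf4. In the mandible 8 of 12 mesenchymal markers were called as higher, with a list median of 4.44 on the log2 scale, and 6 of 8 dental epithelium markers, with a median of 10.75. Over all tested genes 3.88% were called as higher. Of the mesenchymal list 10 of 12 lay above 0. Cxcl12 lay below 0, at -1.42 (adjusted p = 0.084 in edgeR's quasi-likelihood test), as did Lepr, at -0.44 (adjusted p = 0.70). Cxcl12 was lower in each mandible library than in any femur library. Of 12 B lineage markers 9 were tested and 1, Ebf1, was called as higher (1.89 on the log2 scale, adjusted p = 0.048), a call that none of the 6 fits without 1 library made (adjusted p = 0.062 to 0.21) and that was lost with length correction (1.33, adjusted p = 0.17). The B lineage list overlapped between the sites and summed to 27.0 to 38.2 CPM in femur libraries and 34.7 to 47.8 CPM in mandible libraries. The part of these cells in the Tcf4 difference was not tested.

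**Figure D3:**
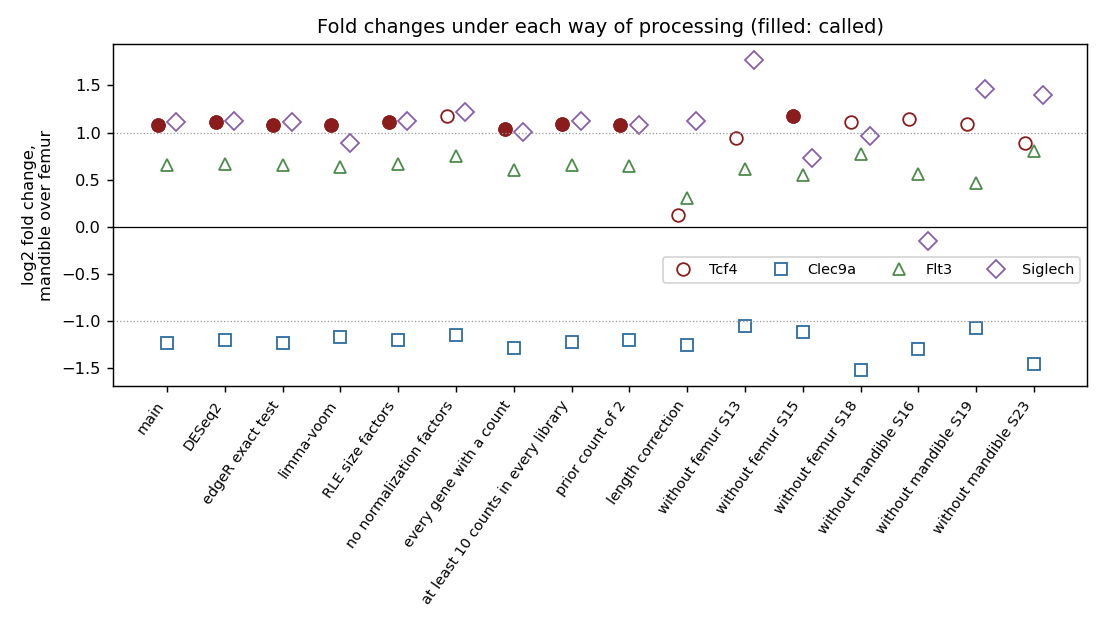
Log2 fold change, mandible over femur, of Tcf4 (circles), Clec9a (squares), Flt3 (triangles) and Siglech (diamonds) in the main test, 9 alternatives and 6 fits that each leave out 1 library; filled symbols were called, and dotted lines mark a fold change of 2. Tcf4 falls to 0.12 after length correction, Siglech turns to -0.16 without S16, and Clec9a stays between -1.52 and -1.05 when single libraries are left out.

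Compared per 1000 bases of exon over the 6 libraries, Cd209a had the highest mean level of the 9 genes at 6.58 CPM per kb, followed by Irf4 at 4.64, Flt3 at 3.45, Batf3 at 2.32, Tcf4 at 2.09, Clec9a at 1.19, Siglech at 0.847, Zbtb46 at 0.543 and Xcr1 at 0.0829 CPM per kb. The ranges of neighbours in this order overlapped throughout over the 6 libraries. Zbtb46 was nevertheless above Xcr1 in each of the 6 libraries taken singly, their ranges meeting only between different libraries, while every other gene was above the next one in 3 to 5 of the 6. Within the femur, 3 neighbours were apart: Irf4 (lowest 3.49 CPM per kb) above Flt3 (highest 3.08), Tcf4 (lowest 1.06) above Zbtb46 (highest 0.812), and Siglech (lowest 0.259) above Xcr1 (highest 0.207). Within the mandible the ranges of all neighbours overlapped, and Tcf4, at 2.84 ± 0.42 CPM per kb, stood at rank 4, against 1.34 ± 0.27 CPM per kb and rank 6 in the femur. These levels divide by all annotated exon bases of a gene, 27382 for Tcf4, and its rank depends on that length. By CPM alone Tcf4 had the highest mean of the 9 genes over the 6 libraries, 57.2 CPM, followed by Irf4 at 22.8 CPM.

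Summed CPM of the genes of each subset were set beside each other between the sites, as values without a test. The plasmacytoid genes summed to 32.1 to 44.4 CPM in femur libraries and 72.7 to 92.9 CPM in mandible libraries, most of it Tcf4. The type 1 genes overlapped, at 5.70 to 13.1 CPM and 5.78 to 7.74 CPM. The type 2 genes lay at 27.0 to 29.9 CPM in femur libraries and 33.9 to 44.3 CPM in mandible libraries, and the genes of all conventional cells at 19.2 to 22.5 CPM and 25.3 to 34.9 CPM. These last sums did not overlap between the sites although no gene in them was called and each gene taken alone overlapped. Of all tested genes taken singly, 24.2% did not overlap. The sums were not corrected for gene length. With that correction the log2 fold changes of Tcf4, Flt3 and Irf4 fell to 0.12, 0.31 and 0.22, while that of Cd209a rose to 0.63.

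The genes also differed in which libraries moved together. By the root mean square difference of centred log2(CPM + 0.5) over the 6 libraries, Irf4 and Tcf4 were the nearest pair of the 8 tested genes at 0.36, and Zbtb46 and Cd209a the farthest at 1.40. Siglech and Tcf4, both of the plasmacytoid subset, were 0.98 apart, Batf3 and Clec9a of the type 1 subset 1.00, Cd209a and Irf4 of the type 2 subset 1.14, and Flt3 and Zbtb46 0.87. Each of the 8 genes had a gene of another subset nearer to it than its own partner. With a single partner and several genes of other subsets for each gene, this outcome was likely in advance and says little about the subsets. Among 16140 tested genes with a mean of at least 1 CPM, the nearest profile to Tcf4 was that of Relb (0.09), a subunit of NF-kappa B that is itself needed for type 2 cells, followed by Tmem65 (0.12) and Snx33 (0.13). Relb was read at 6.63, 9.63 and 8.22 CPM in femur libraries and 16.6, 18.9 and 20.3 CPM in mandible libraries, without overlap, and did not pass the test (1.19 on the log2 scale, adjusted p = 0.11).

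Other genes stood nearest to the remaining members. Those nearest to Irf4 were Brwd1 (0.05), 2610008E11Rik (0.06) and Sos1 (0.08), and those nearest to Flt3 were Klhl22 (0.08), Rab11b (0.09) and Itgal (0.10). Clec9a was followed by Gm16094 (0.22), Zfp78 (0.23) and Cd300lf (0.23), Siglech by Thnsl1 (0.18), Klra17 (0.24) and Mfsd9 (0.25), and Cd209a by Gm4977 (0.11), Atg4a-ps (0.20) and Gm43587 (0.21). Batf3 was nearest to Disc1 (0.15), Gm14121 (0.18) and Gm37646 (0.21), and Zbtb46 to Rpp30 (0.18), Nutf2-ps1 (0.21) and 2810021J22Rik (0.21). With 6 points each, shared library effects and depth enter all of these differences.

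The other genes of each subset were taken from lists. Of 16 other type 1 genes 15 were tested, 9 lay above 0, and 1 was called, Gcsam, a signalling adaptor also known from germinal centre B cells, which was lower in the mandible. Gcsam was read at 8.34, 5.99 and 7.95 CPM in femur libraries and 0.20, 0.902 and 0.972 CPM in mandible libraries (-3.42 on the log2 scale, SE 0.82, adjusted p = 0.034), and 4 of the 6 fits without 1 library did not call it. The median of the list was 0.20, and 4 of the 15 had sites that did not overlap. Over all tested genes the median was -0.04, 24.2% did not overlap and 5.18% were called. The most abundant genes of the list, Irf8, Cd24a and Wdfy4, overlapped between the sites. Irf8, the partner of Batf3 in type 1 cells and a factor of monocytes as well, was read at 296, 507 and 376 CPM in femur libraries and 581, 453 and 225 CPM in mandible libraries, highest in S16 and lowest in S23 (0.10 on the log2 scale, adjusted p = 0.95).

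Of 16 other type 2 genes 14 were tested, 7 lay above 0 with a list median of 0.11, 6 had sites that did not overlap, and 1 was called as lower, Esam, an adhesion molecule also of endothelium, platelets and stem cells. Of all tested genes 24.2% did not overlap and 1.3% were called as lower. Esam was read at 8.73, 10.1 and 8.88 CPM in femur libraries and at 0.20, 0.237 and 0 CPM in mandible libraries (-5.90 on the log2 scale, SE 0.97, adjusted p = 0.0046), and every fit without 1 library called it, while limma-voom did not. Notch2, whose signal type 2 cells need, was the most abundant of the list and ran from 218 to 422 CPM in femur libraries and from 505 to 627 CPM in mandible libraries, without overlap, but did not pass the test (0.83 on the log2 scale, adjusted p = 0.19). Klf4 and Sirpa, next in abundance, overlapped between the sites. Endothelial markers summed to 67.3 to 89.7 CPM in femur libraries and 46.2 to 81.2 CPM in mandible libraries, with Esam as the called one of 7 tested, and their part in the Esam difference was not tested.

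Of 22 other plasmacytoid genes 20 were tested, 16 lay above 0 with a list median of 0.65, 7 had sites that did not overlap, and 3 were called, all as higher in the mandible. Over all tested genes the median was -0.04, 24.2% did not overlap and 3.88% were called as higher. Ptprs, a receptor phosphatase of plasmacytoid cells and of nerve and connective tissue, was read at 38.9, 67.0 and 40.6 CPM in femur libraries and 117, 135 and 213 CPM in mandible libraries (1.67 on the log2 scale, SE 0.33, adjusted p = 0.012). Runx2, which plasmacytoid cells use to leave the marrow and which is the master factor of osteoblasts, ran from 32.04 to 43.03 CPM in femur libraries and from 73.8 to 110 CPM in mandible libraries (1.27, SE 0.27, adjusted p = 0.018). Cox6a2, a respiratory chain subunit of muscle and plasmacytoid cells, had 0, 2 and 4 counts in the femur and 114, 72 and 213 counts in the mandible (fitted at 6.17 on the log2 scale with a prior count of 0.125, SE 1.14, adjusted p = 0.0088). Most mesenchymal markers moved with these 3 genes, by the values given beside Tcf4, and their part in these differences was not tested.

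The plasmacytoid calls depended on the libraries and on length. Without S23 none of the 20 was called, and with each of the other libraries left out in turn 1 to 3 were. After correction for length 1 remained called, Cox6a2, with Ptprs at 0.95 (adjusted p = 0.11) and Runx2 at 0.71 (adjusted p = 0.30) on the log2 scale, and the list median was 0.19. Cox6a2 was not called by limma-voom. Pld4 and Bcl11a, the most abundant of the list beside Ptprs, were not called, and Pld4, an exonuclease of the endosome, was at 0.05 on the log2 scale (adjusted p = 0.97).

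**Figure D4:**
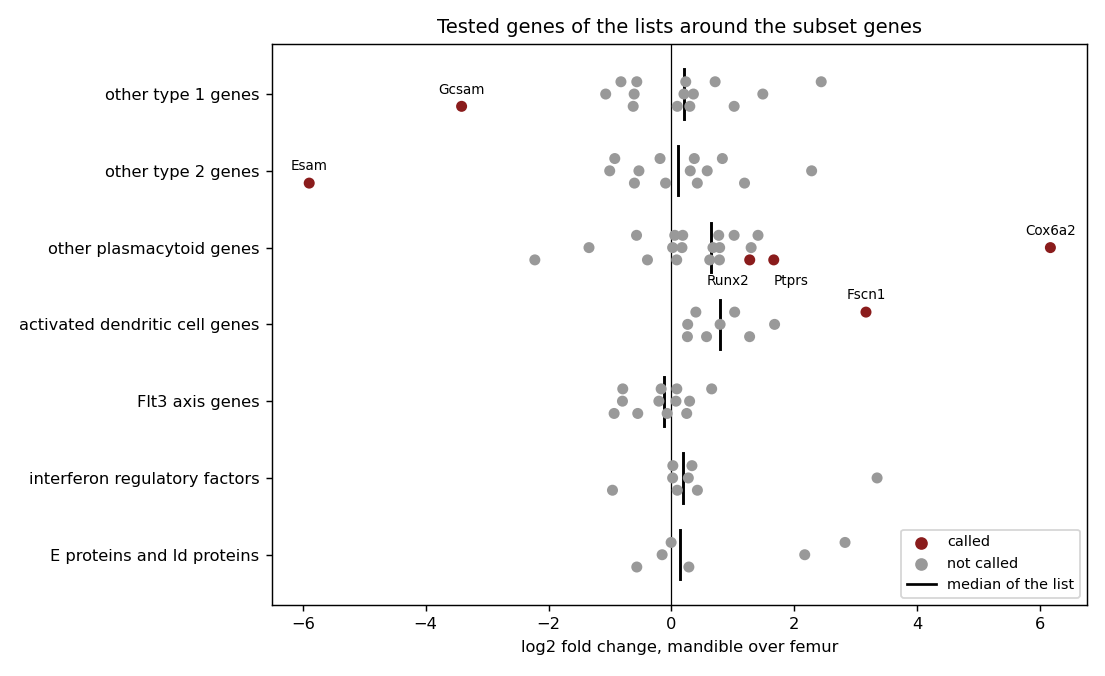
Log2 fold changes, mandible over femur, of the tested genes of 7 lists around the subset genes, with called genes in red, the others in grey and the list median as a black bar. The medians run from -0.12 in the Flt3 axis list to 0.79 in the activated dendritic cell list, and called genes occur in the type 1, type 2, plasmacytoid and activated lists only.

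Of 12 genes of activated dendritic cells 9 were tested, all 9 lay above 0 with a median of 0.79, and 1 was called. Over all tested genes the median was -0.04 and 5.18% were called. The called gene was Fscn1, the actin-bundling fascin of mature dendritic cells and also of nerve and mesenchyme, at 2.38, 1.38 and 2.12 CPM in femur libraries and 14.96, 16.05 and 21.8 CPM in mandible libraries (3.17 on the log2 scale, SE 0.48, adjusted p = 0.0028), and every fit without 1 library called it. Most mesenchymal and dental epithelium markers moved with it, 8 of 12 and 6 of 8 called as higher, and their part in the values of this list was not tested. Cd86 and Cd40, costimulatory molecules, and the chemokine Ccl5 were the most abundant of the list and were not called. Ccl22, a chemokine of mature dendritic cells, had no count in any library, and Il12b and Apol7c did not pass the filter.

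The Flt3 axis, 12 genes of the ligand, its signal and related receptors and factors, had no called gene among 12 tested, with 5 above 0 and a median of -0.12, and Csf1r, Ikzf1 and Spi1 were the most abundant. The interferon regulatory factors beside Irf4 had none called among 8, with 4 whose sites did not overlap, and Batf and Batf2 were not called either. Of all tested genes 5.18% were called and 24.2% did not overlap. Of the E proteins and their Id inhibitors none of 6 was called: the other E proteins Tcf3 and Tcf12 were at -0.01 and 0.28 on the log2 scale, and Id2, the inhibitor that conventional cells carry, was at -0.56 (adjusted p = 0.41). Id2 was lower in each mandible library (24.3, 40.6 and 37.4 CPM) than in any femur library (44.0, 41.8 and 65.3 CPM). The inhibitors Id3 and Id4, named after their values were seen, had the largest differences of the list, at 2.83 (adjusted p = 0.066) and 2.17 (adjusted p = 0.20), and both were higher in each mandible library than in any femur library. With only genes of at least 10 counts in every library tested, 2 of this list were called as higher, where 811 of all 12919 genes were called, 511 of them as higher. DESeq2, edgeR's exact test, the test of every gene with a count, the length correction and the fit without S16 each called 1 as higher. The remaining alternatives called none. Of 5 Langerhans cell genes 4 were tested and 1, Mfge8, a bridge to dying cells made by many cell types, was called as higher in the mandible (1.75 on the log2 scale, adjusted p = 0.013), but not without S13, S19 or S23 (adjusted p up to 0.094). Cd207, the gene that defines these cells, did not pass the filter.

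Ratios within a library set the subsets beside each other without the scaling between libraries. Irf8 over Irf4 per kb was 12.0, 15.3 and 14.6 in the femur and 15.6, 15.1 and 4.93 in the mandible, so S23 alone stood low. Clec9a over Batf3 per kb was 1.66, 0.595 and 0.620 in the femur and 0.284, 0.128 and 0.735 in the mandible, where S23 fell within the femur range. Tcf4 over Siglech per kb was 1.14, 6.14 and 3.31 in the femur and 1.03, 6.18 and 6.15 in the mandible, low in S13 and S16, the libraries with the most Siglech counts. Tcf4 over Id2 per kb was 0.059, 0.093 and 0.052 in the femur and 0.259, 0.156 and 0.217 in the mandible, without overlap. Each of these genes alone was apart between the sites, in opposite directions, so their ratio had to be apart too. Tcf4 has 27382 exon bases and Id2 2438, and the median log2 fold change rose with gene length. The ratios were not corrected for that trend. The size of each ratio depends on the exon lengths used.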

How the data were processed

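Monocytes of the femur and mandible were sequenced in 6 libraries, grouped by the site in their labels. The authors trimmed paired-end reads, mapped them with HISAT2 2.1.0 to GRCm38 and counted them with featureCounts, and they deposited raw counts per gene without normalization. The use of strand and of reads with several positions is not given in the sources used here. Only 2979 of 52029 genes shared with GENCODE M21 had a table interval inside the M21 gene, so gene positions follow M21, matched on the Ensembl identifier, and table lengths equalled the M21 exon bases for 95.5% of these genes and for all 9 members.

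The test was that of edgeR 4.0.16 under R 4.3.3 (filterByExpr at its defaults, a count of 10 and a total of 15, TMM, quasi-likelihood fit and test, prior count 0.125, no covariates), which kept 18114 of 57010 genes, with Benjamini-Hochberg adjustment over all of them. Each member and listed gene also had its site labels permuted exactly (two-sided). Alternatives comprised edgeR's exact test, limma-voom (limma 3.58.1), DESeq2 1.42.0, RLE size factors, no normalization factors, 2 other filters, a prior count of 2, no fold threshold, a loess correction on gene length (span 0.4) and each library left out in turn. The fit was tested on simulated data. Figures were drawn with matplotlib 3.10.9.

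The members and the lists were chosen with earlier results of these data known. Named genes were the members, in each list discussed up to 3 genes with the highest mean CPM and the called genes, the 3 nearest profiles of each member, and Xist, Ddx3y, Kdm5d and Uty. Clec1b, Id3, Id4, Jchain, Cxcl12, Lepr and the genes named for failing the filter or for having no count (Ccl22, Il12b, Apol7c, Cd207) were chosen after values were seen. Windows before gene starts came from RefSeq (GRCm38.p6) and were used for 8 of the 9 members. Protein sequences were not used here.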

Additional observations from a re-analysis of the deposited data

How the results depend on the processing

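Over 15 alternatives for each of the 8 tested genes, 106 of 120 values kept their direction and their side of the threshold, 7 lost the call and 7 reversed. The lost calls were all of Tcf4: without normalization factors (1.17, adjusted p = 0.055), after length correction (0.12, adjusted p = 0.90), and in 5 of the 6 fits that left out 1 library. The reversed values, all of genes not called, were Zbtb46 at 0.057 without normalization factors and at 0.26 and 0.27 without S13 and S16 (from -0.68 to 0.27 with 1 library left out), Batf3 at -0.13 without S19 (-0.13 to 0.87), Cd209a at -0.032 with limma-voom and -0.17 without S16 (-0.17 to 0.76), and Siglech at -0.16 without S16 (-0.16 to 1.77). Genes called among the members numbered 1 in the main test, 0 without normalization factors, 0 after length correction, and 0 to 1 when 1 library was left out. Over all genes, 938 were called in the main test, 1548 by DESeq2, 1468 by edgeR's exact test, 1590 with every gene with a count tested, and 434 (without S19) to 1565 (without S15) when 1 library was left out. The cause of these changes was not tested.

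No paired analysis was possible because the labels do not give the animals of each library, so any pairing between the sites is unknown. Depth limits Xcr1, at most 20 counts in a library, and Siglech and Batf3, under 60 counts in most femur libraries. With 3 libraries a site, the intervals of 7 of the 8 tested genes include 0.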
